A study of Mus musculus with 3 samples.

Results

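PRDM9-dependent shoulder peaks are narrow H3K4me3 peaks that lie within a broad H3K4me3 domain shared with a PRDM9-independent region, such as a promoter, while their own centre falls outside that region. They were taken as the autosomal narrow peaks with a centre outside every PRDM9-independent region but within a broad peak sharing 1 bp or more with such a region. This rule gave 4107 peaks, of 60913 autosomal PRDM9-dependent narrow peaks and 99104 autosomal narrow peaks in all. They occupied 2964 broad peaks, of which 2637 held 1 shoulder peak, 227 held 2 and 100 held 3 or more.

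The peaks came from H3K4me3 ChIP-seq of whole adult testis from males of (C57BL/6J x CAST/EiJ)F1 hybrids carrying the Prdm9 genotype Humanized/CAST. A single condition was measured, with 2 replicate ChIP libraries and an input. The humanised allele (Hum) is B6 Prdm9 with the DNA-binding zinc-finger array of the human gene, and the other allele (Cast) is that of CAST/EiJ. Whether the ChIP libraries came from 1 or 2 animals differs between the sources, so the spread between them may be technical. Whole testis mixes germ cells at every stage with somatic cells, and fewer cells of a type cannot be told apart from less of the mark per cell. H3K4me3 peaks lay within 1000 bp of a start of 4 of 5 germ cell marker genes (Dazl, Ddx4, Sycp3 and Prm1, but not Acrv1), 1 of 2 Sertoli cell markers, 2 of 2 Leydig cell markers and 1 of 2 myoid cell markers. Fragments covering a peak centre summed to 17621116 and 19094837 in the ChIP replicates and to 1250138 in the input over 101978 centres.

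In meiosis, PRDM9 binds its motif through the zinc fingers and trimethylates lysine 4 of histone H3 on the nucleosomes around it, and double-strand breaks then form at some of these sites. DMC1, the meiotic recombinase that coats the resected single strands, marks where breaks formed, and a non-crossover (NCO) event is the short conversion tract left when a break is repaired without exchange of the flanks. Active promoters carry H3K4me3 without PRDM9, often over CpG islands. A peak beside a promoter could therefore belong to the flank of the promoter domain or to a hotspot that happens to lie near it, and the features compared below are those that usually separate such sites: distance, CpG content, motif, and listed DMC1 hotspots and NCO events.

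The binding motif of the Cast allele was a matrix of 31 positions and that of the Hum allele of 48. A consensus of each follows, with a letter where a single base had at least 50% and N elsewhere, so that the matches printed further on can be read against it.

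Prdm9 Cast motif: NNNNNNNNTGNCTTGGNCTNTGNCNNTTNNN

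Prdm9 Hum motif: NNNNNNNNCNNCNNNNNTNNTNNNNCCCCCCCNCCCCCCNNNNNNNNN

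A peak was said to hold a motif when its best match on either strand, within 300 bp of the centre, scored above the limit that 1% of 198208 flanking windows passed. A match describes the sequence only and does not show binding.

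Shoulder peaks were modest in height. Enrichment is the authors' estimate of coverage above local background, on a scale where 0 is no enrichment. Its median was 3.63 (quartiles 2.22 and 6.83), against 2.69 in the 56806 other PRDM9-dependent peaks and 11.8 in the 38191 PRDM9-independent ones. The median coverage of a shoulder centre was 20 and 24 ChIP fragments beside 6 input fragments. Both replicates exceeded the input at 94.9% of shoulder peaks, beside 92.4% of all autosomal narrow peaks and 87.55% of other PRDM9-dependent peaks, and the log2 coverage of the replicates correlated across these peaks with r = 0.914. The correlation is across peaks that share the same libraries and is a description. The deposited likelihood ratio p was under 1e-10 for 3577 shoulder peaks, or 87.1%, beside 80.8% of all autosomal narrow peaks and 68.2% of other PRDM9-dependent peaks. The rule places every shoulder in a broad peak, itself called on enrichment, so both shares are partly selected for. Among the 54634 other PRDM9-dependent peaks inside a broad peak, 70.64% had such a p. Both replicates exceeded the input at 88.41% of them.

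The shoulder peaks were divided by position. Those within 500 bp of a PRDM9-independent region and within 2000 bp of an annotated transcript start were called near edge (272), those at least 1000 bp from every region and more than 2000 bp from every start were called apart (1948), and the remaining 1887 fell between. The median distance to the nearest PRDM9-independent region was 1259 bp over all shoulder peaks and the median distance to an annotated start was 4599 bp. By the annotation, 48.8% of shoulder centres were intronic, 35.5% intergenic, 8.25% in coding exons and 7.50% in other exonic sequence.

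The length of the broad peak gave a further division, made on inspection of the files. In all, 850 shoulder peaks lay in 63 very long broad peaks of at least 20000 bp, and they are described separately at the end. The remaining 3257 lay in broad peaks of ordinary length, with a median of 4200 bp, and the values that follow are for these unless stated otherwise. Of the 3257, 270 were near edge, 1732 between and 1255 apart.

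Near edge peaks included a small group rich in CpG, with a high median ChIP coverage. CpG observed over expected, which is near 1 where CpGs have not been lost, reached 0.6 within 150 bp of the centre in 42 of 270 near edge peaks (15.6%, exact 95% binomial interval 11.5 to 20.4), against 6.53% of apart peaks (5.23 to 8.05), 7.12% of other PRDM9-dependent peaks and 41.5% of PRDM9-independent peaks. Intervals given on shares cover counting error only. These 42 peaks had medians of 377.5 and 425.0 ChIP fragments and 22.0 input fragments, with a median enrichment of 27.0, and their coverage spread widely, with quartiles of 49.25 and 2566 in replicate 1. The other 228 near edge peaks had medians of 20, 25 and 7 fragments and an enrichment of 3.5. Neither motif was found at any of the 42, which allows a share of up to 7.14% (3 counts of 42), and none lay within 1000 bp of a listed DMC1 hotspot. Among peaks at or above the same CpG limit, a Cast motif was found in 1.56% of other PRDM9-dependent and 0.788% of PRDM9-independent peaks. The 42 peaks had a median distance of 100 bp to a PRDM9-independent region and of 190 bp to an annotated start. PRDM9-independent regions lay on both sides of the centre within the same broad peak in 23 of them. In 35 of the 42, the broad peak held no PRDM9-independent centre. Of the other 7, 5 were stronger than the strongest PRDM9-independent centre of their broad peak. Most of the 42 were thus not the lower neighbour of a listed promoter centre. The 15854 CpG-rich PRDM9-independent peaks had medians of 588 and 635 ChIP fragments.

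The 5 near edge peaks of highest enrichment, among those with at least 5 input fragments and both replicates above input, all belonged to this group. The highest was at chr15:79687610, 309 bp downstream of the start of Josd1, a deubiquitinase gene, where 2644 and 2675 ChIP fragments and 19 input fragments covered the centre. At chr6:143167563, 309 bp into Etnk1, which encodes ethanolamine kinase, the counts were 3073, 3258 and 26. At chr8:124897519, 186 bp into Exoc8, which encodes a subunit of the exocyst, they were 2780, 2694 and 25. Each of these centres sat just beyond the region's border, at 210, 38 and 19 bp. The others were at chr3:95659255 in Mcl1, an anti-apoptotic gene of the BCL2 family, with 2636, 2705 and 25 fragments, and at chr6:137735337 in Strap, with 3358, 3172 and 32. Enrichment over the 5 ran from 95.9 to 132. The broad peaks of the Etnk1 and Strap peaks held no PRDM9-independent centre. The Josd1, Exoc8 and Mcl1 peaks had 2.127, 8.615 and 4.32 times the enrichment of the strongest such centre in their broad peaks. The 101 bases around the 3 centres in coding exons (GRCm38, plus strand), shown for their CpG density, hold 13, 13 and 15 CpG dinucleotides, in capitals.

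Etnk1, chr6:143167513-143167613: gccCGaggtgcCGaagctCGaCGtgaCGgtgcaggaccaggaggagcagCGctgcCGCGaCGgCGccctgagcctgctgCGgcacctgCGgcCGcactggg

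Exoc8, chr8:124897469-124897569: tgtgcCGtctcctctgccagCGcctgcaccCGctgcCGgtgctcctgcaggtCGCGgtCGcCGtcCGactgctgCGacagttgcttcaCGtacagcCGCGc

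Mcl1, chr3:95659205-95659305: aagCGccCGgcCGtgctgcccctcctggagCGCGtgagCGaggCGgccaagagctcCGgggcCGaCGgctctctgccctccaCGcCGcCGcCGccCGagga

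**Figure D1:**
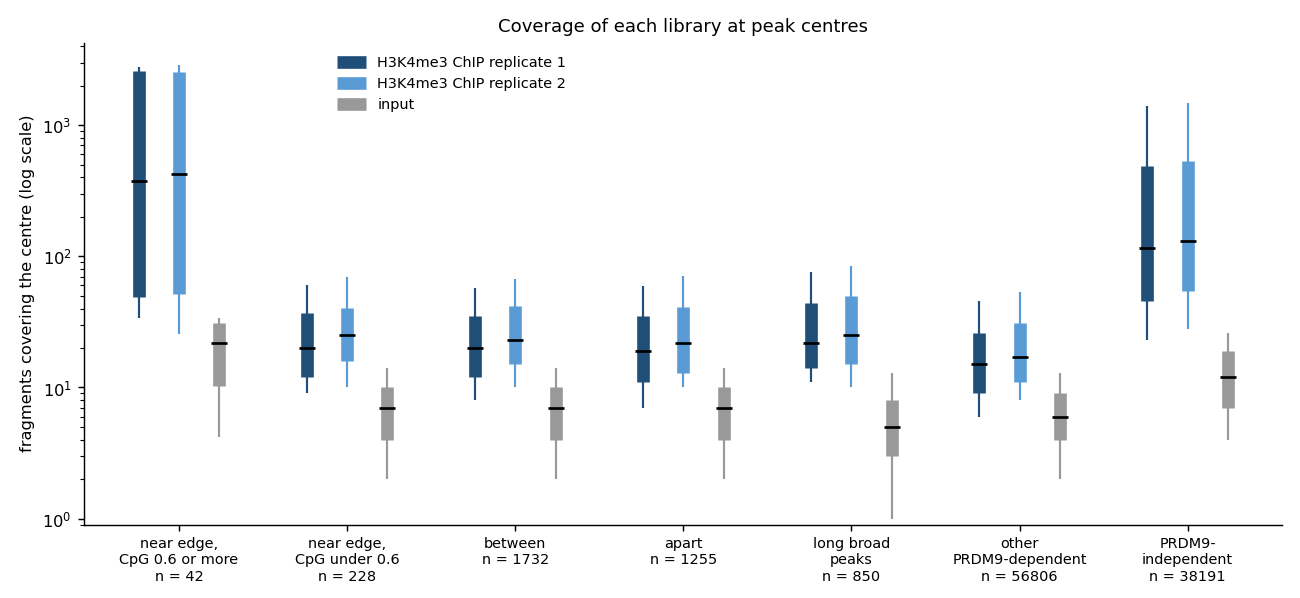
Fragments covering the peak centre in each library (log scale), for shoulder peaks of ordinary broad peaks by position class, for those in long broad peaks, and for the other peaks of the series. Bars span the quartiles, thin lines the 10th to 90th percentiles and black marks the medians. The 42 near edge peaks rich in CpG have medians of 377.5 and 425.0 ChIP fragments, whereas every other group of shoulder peaks has medians from 19 to 25.

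Elsewhere the base composition of shoulder peaks gave little separation. Median CpG observed over expected was 0.292 near edge, 0.238 between and 0.225 apart, beside 0.252 in other PRDM9-dependent peaks and 0.506 in PRDM9-independent peaks. Of the 245 shoulder peaks at or above 0.6, 2 held a Cast motif and none lay near a listed DMC1 hotspot, which allows a share of up to 1.22% (3 counts of 245). Such a hotspot lay near 0.272% of the CpG-rich other PRDM9-dependent peaks and 0.0442% of the CpG-rich PRDM9-independent ones, shares within that limit.

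The Cast motif was less frequent close to a region than farther out. It was found in 12 of 517 peaks within 100 bp of a region (2.32%, interval 1.21 to 4.02) and in 6 of 290 at 100 to 250 bp (2.07%, 0.763 to 4.45). At 250 to 500 bp the share was 5.54% (3.20 to 8.84), and at 500 to 1000 bp it was 12.6% (9.82 to 15.8), in 63 of 500 peaks. It was 9.74% at 1000 to 1500 bp, 7.87% at 1500 to 2000 bp, 7.58% at 2000 to 3000 bp and 6.01% beyond. For comparison, the motif was found in 10.4% of other PRDM9-dependent peaks, 1.14% of PRDM9-independent peaks and 6.65% of all autosomal narrow peaks. The intervals of the shares below 250 bp and at 500 to 1000 bp do not overlap, and the latter includes the share of other PRDM9-dependent peaks. Raising the score limit so that 0.1% of flanking windows passed left 0.124% of the 807 peaks below 250 bp and 2.68% of the 1270 peaks from 500 to 1500 bp.

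Listed DMC1 hotspots were also less frequent within 250 bp of a region than at 500 to 1500 bp. The positions were those nearest to the study's NCO events, 1373 on autosomes, and are a small part of its DMC1 peaks. A peak without one is therefore not shown to lack DMC1. The events were found in offspring of the cross, of both sexes and mostly homozygous for the Hum allele, not in the males profiled here. The shares thus also depend on where those events were found. A listed hotspot lay within 1000 bp of 2 of 517 shoulder peaks within 100 bp of a region (0.387%, 0.0469 to 1.39) and of 1 of 290 at 100 to 250 bp. The share was 3.0% (1.69 to 4.90) at 500 to 1000 bp and 4.03% (2.75 to 5.67) at 1000 to 1500 bp, where 31 of 770 peaks had one. It was 2.00% in other PRDM9-dependent peaks, 0.225% in PRDM9-independent peaks and 1.30% in all autosomal narrow peaks. At 1500 to 2000 bp the share was 1.31% (0.427 to 3.04), so it did not keep rising with distance.

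**Figure D2:**
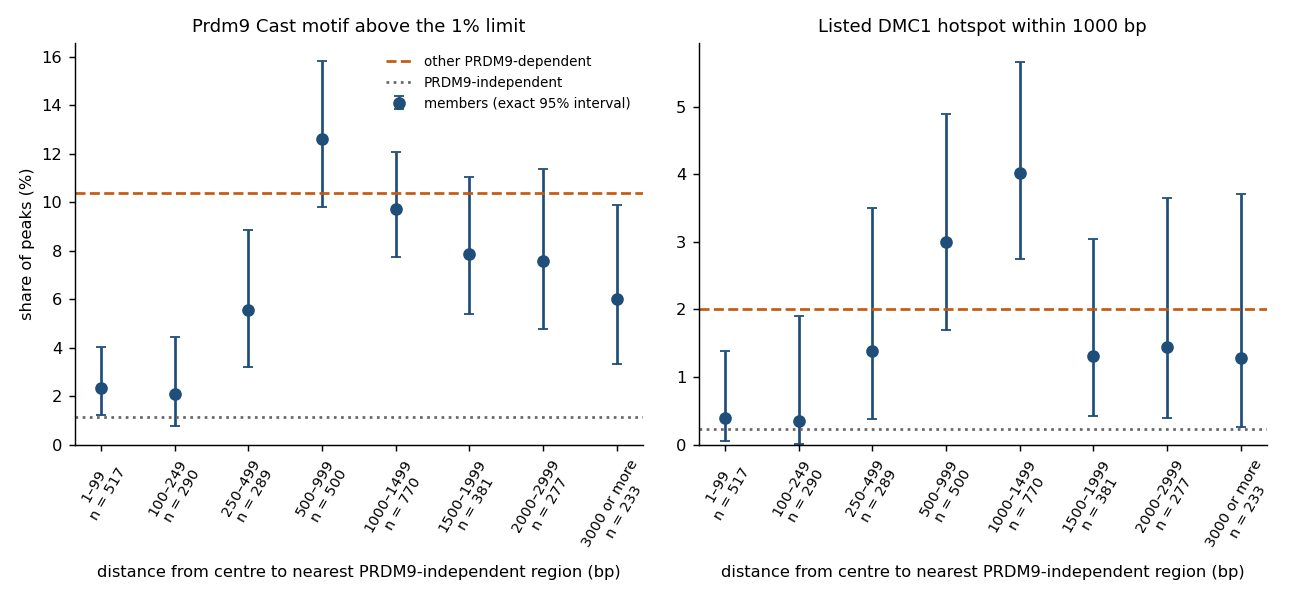
Share of shoulder peaks of ordinary broad peaks with a Prdm9 Cast motif (left) and with a listed DMC1 hotspot within 1000 bp (right), by distance in bp to the nearest PRDM9-independent region. Points are shares with exact 95% intervals, and lines give other PRDM9-dependent peaks (10.4% and 2.00%) and PRDM9-independent peaks (1.14% and 0.225%). The motif share is 2.32% within 100 bp and 12.6% at 500 to 1000 bp.

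The shares of the Hum motif did not follow this order, but they rest on few peaks and their intervals overlap. The share was 2.32% within 100 bp (1.21 to 4.02) and 3.79% at 100 to 250 bp (1.91 to 6.69). It was 2.20% at 500 to 1000 bp (1.10 to 3.90) and 2.47% at 1000 to 1500 bp (1.49 to 3.83). The mice used to define PRDM9-independent regions included Hum homozygotes but none with the Cast allele. Whether this bears on the shares was not tested. The Hum share was 2.85% in other PRDM9-dependent peaks, 1.25% in PRDM9-independent ones and 2.20% over all autosomal narrow peaks. Over the whole of the 3257 peaks, 237 held a Cast motif, 82 a Hum motif and 2 held both.

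By position class, the Cast motif was found in 4.07% of near edge peaks (2.05 to 7.17), 7.33% of peaks between (6.15 to 8.66) and 7.89% of apart peaks (6.46 to 9.52). The class between was mixed. Its 826 peaks within 500 bp of a region but without a start within 2000 bp had a share of 2.78% (1.77 to 4.15), its 500 peaks at 500 to 1000 bp had 12.6%, and its 406 peaks at least 1000 bp from a region but within 2000 bp of a start had 10.1% (7.35 to 13.4). Within this class the share was lowest within 500 bp of a region, and the interval of the peaks within 2000 bp of a start but far from a region included the share of other PRDM9-dependent peaks. A listed DMC1 hotspot lay near 3 of 270 near edge peaks (1.11%, 0.230 to 3.21) and 34 of 1255 apart peaks (2.71%, 1.88 to 3.76), whose intervals overlap.

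Many of the peaks closest to a region lay in a broad peak with no PRDM9-independent centre. In 961 of the 3257, the broad peak overlapped a PRDM9-independent region but held no PRDM9-independent narrow centre, and 819 of these were the sole centre of any kind there. The median length of these broad peaks was 1500 bp and the median distance from the centre to the region was 120 bp. Their Cast motif share was 3.43% (2.38 to 4.79), against 8.88% (7.75 to 10.1) in the 2296 peaks whose broad peak did hold such a centre. Of the 270 near edge peaks, 180 were of the first kind, with a share of 2.22% (0.609 to 5.59), against 7.78% (3.18 to 15.4) in the other 90. Because the authors' caller kept centres at least 1 kb apart, a shoulder within that distance of a stronger PRDM9-independent centre could not be listed.

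At the border itself the rule cut through similar peaks. The 525 shoulder peaks 1 to 100 bp outside a region had a median enrichment of 3.42 and medians of 20 and 24 ChIP fragments. The 1316 PRDM9-independent centres in the outer 100 bp of a region had a median enrichment of 3.78 and medians of 24 and 29. The Cast motif was found in 2.29% of the former (1.19 to 3.96) and 1.37% of the latter (0.813 to 2.15).

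Where a broad peak held both kinds of centre, the shoulder was usually the lower. The median ratio of its enrichment to that of the strongest PRDM9-independent centre of the same broad peak was 0.217 over 2296 peaks, and the shoulder was the stronger in 323. The share with a Cast motif was 3.09% (1.61 to 5.34) at a ratio under 0.05 and 5.59% (3.29 to 8.80) at 0.05 to 0.1. It was 10.2% (7.81 to 13.1) at 0.1 to 0.25, 8.09% at 0.25 to 0.5 and 10.4% at 0.5 to 1. Among the 323 shoulders stronger than the PRDM9-independent centre it was 16.1% (12.3 to 20.6). A listed DMC1 hotspot lay near 2 of 388 peaks at the lowest ratios (0.515%, 0.0625 to 1.85) and near 10 of the 323 (3.10%, 1.49 to 5.62). The ratio uses the same coverage as the peak calls, whereas the motif uses sequence only. Input had no fragment at 7.43% of the 323 and at 0.258% of those under 0.05, where the enrichment is imprecise.

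**Figure D3:**
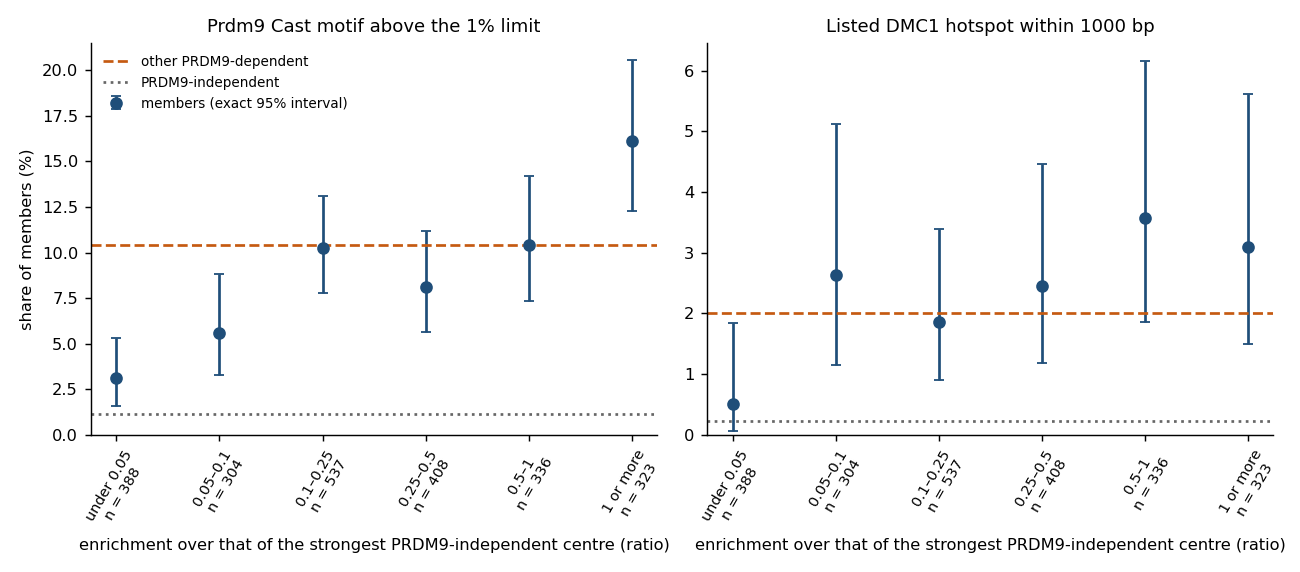
Share of shoulder peaks with a Prdm9 Cast motif (left) and with a listed DMC1 hotspot within 1000 bp (right), by the ratio of their enrichment to that of the strongest PRDM9-independent centre of the same broad peak. Points are shares with exact 95% intervals, and lines give the other peaks of the series. The motif share is 3.09% at ratios under 0.05 and 16.1% at ratios of 1 or more.

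Shoulders with a motif were also the higher ones. The 237 with a Cast motif had medians of 42 and 46 ChIP fragments, 8 input fragments and an enrichment of 5.83, and the 2940 with neither motif had 19, 22, 7 and 3.21. The 65 near a listed DMC1 hotspot had medians of 49 and 58 ChIP fragments and 7 input fragments. The same direction held among other PRDM9-dependent peaks, with an enrichment of 4.29 in those with a Cast motif and 2.57 in those with neither. The centre lay a median of 160 bp from the listed DMC1 position in the 65, of which 16 held a Cast motif and 1 a Hum motif. Of the 1373 listed DMC1 positions, 66 lay within 1000 bp of a shoulder peak of any broad peak. None of those 66 lay within 1000 bp of a PRDM9-dependent centre that was no shoulder. The rule largely sets this, since every PRDM9-dependent centre of the same broad peak is itself a shoulder and centres were kept at least 1 kb apart.

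In all, 367 of the 3257 shoulder peaks (11.3%, 10.2 to 12.4) had a motif of either allele, a listed DMC1 hotspot or a listed NCO event within 1000 bp, beside 9.91% of all autosomal narrow peaks. The share was 14.9% in other PRDM9-dependent and 2.62% in PRDM9-independent peaks. The other 2890 shoulders had none of these marks. Both a motif and a DMC1 hotspot were found at 17.

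The 5 apart peaks of highest enrichment, by the same rule as above, included 3 in ordinary broad peaks. The highest lay at chr9:113426492 in intergenic sequence, 3292 bp from the nearest region, with 204 and 227 ChIP fragments and 7 input fragments, an enrichment of 28.9 and no motif. Its enrichment was 2.31 times that of the strongest PRDM9-independent centre of its broad peak. At chr19:46042065, in an intron of Ldb1, which encodes a LIM domain-binding cofactor, the counts were 136, 151 and 7, and matches to both motifs were found. At chr6:34375056, in an intron of Gm13859, they were 134, 129 and 7, and the Cast match there lay in a run of tgtgcc repeats. The other 2 were neighbours in an intron of Suclg1, within a long broad peak of 29700 bp, with 105 and 117 and with 105 and 116 ChIP fragments. Their near identity is taken up with the long broad peaks below.

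The most NCO events listed within 1000 bp of a shoulder peak was 2, at 7 peaks, and the 5 of highest enrichment among them are given here. Because the DMC1 positions were listed through these same events, the 2 marks are not independent. In ordinary broad peaks, an event lay near 50 of the 65 shoulders with a listed DMC1 position and near 2 of the other 3192. At chr9:53613416, 3034 bp upstream of Acat1, a mitochondrial thiolase gene, the counts were 52, 71 and 3 and a DMC1 position lay 121 bp away. The Acat1 promoter in the same broad peak had 1135, 1159 and 42 at its strongest centre. At chr4:119816483, in an intron of Hivep3, the counts were 64, 70 and 5, with a DMC1 position 272 bp away. At chr17:7172266, in an intron of Rps6ka2, which encodes a ribosomal S6 kinase, they were 38, 48 and 4. At chr13:43715680, in intergenic sequence, they were 114, 144 and 10, with a Cast motif and a DMC1 position 192 bp away. This last peak was near edge, 21 bp from a region, and was the sole centre of its broad peak. The fifth, at chr11:65765319 in an intron of Map2k4, a kinase of the JNK pathway, had 70, 87 and 5 fragments and a Cast motif, and lay in a long broad peak.

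Both a motif and a listed DMC1 hotspot, together with an enrichment above that of the PRDM9-independent centre beside it, were found at 2 peaks, chosen after their values were seen. At chr16:93918049, 352 bp from a region in intergenic sequence near Cldn14, the counts were 140, 157 and 13, against 112, 103 and 16 at the PRDM9-independent centre. At chr17:27376647 they were 86, 90 and 16 against 36, 38 and 16. The DMC1 positions lay 60 and 115 bp from these centres and 1 NCO event was listed within 1000 bp of each. As the DMC1 positions were listed through the NCO events, the event adds no separate mark.

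The Cast matches at the peaks just described, with 25 flanking bases on either side (GRCm38, on the strand of the match), are shown to be read against the consensus. In ordinary broad peaks, Cast matches lay a median of 160 bp from the shoulder centre, and 44.73% lay within 150 bp. The median was 141 bp in other PRDM9-dependent peaks with a match. Matches were searched only within 300 bp of the centre, which bounds these distances. Whether they lie closer to the centre than randomly placed matches would was not tested. Capitals mark the 31 bases of the match.

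Ldb1 intron, chr19:46041837-46041917, minus strand: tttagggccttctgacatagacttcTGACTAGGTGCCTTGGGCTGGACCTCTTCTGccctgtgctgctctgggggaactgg

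Gm13859 intron, chr6:34375162-34375242, plus strand: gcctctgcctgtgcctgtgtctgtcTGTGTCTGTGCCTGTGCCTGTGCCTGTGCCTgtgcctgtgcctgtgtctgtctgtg

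Map2k4 intron, chr11:65765433-65765513, minus strand: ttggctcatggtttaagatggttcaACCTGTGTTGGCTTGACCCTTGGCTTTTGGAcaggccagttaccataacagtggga

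Intergenic, chr13:43715452-43715532, minus strand: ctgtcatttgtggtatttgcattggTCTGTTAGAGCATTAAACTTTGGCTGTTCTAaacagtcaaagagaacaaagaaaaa

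Intergenic near Cldn14, chr16:93917893-93917973, plus strand: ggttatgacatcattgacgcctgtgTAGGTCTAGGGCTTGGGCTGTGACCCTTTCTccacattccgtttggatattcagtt

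Intergenic, chr17:27376413-27376493, minus strand: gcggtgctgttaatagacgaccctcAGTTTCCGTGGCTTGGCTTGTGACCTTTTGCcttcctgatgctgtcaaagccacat

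The Ldb1 peak also held a Hum match, of 48 bases, in the C-rich run that the consensus shows.

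Ldb1 intron, chr19:46042115-46042212, plus strand: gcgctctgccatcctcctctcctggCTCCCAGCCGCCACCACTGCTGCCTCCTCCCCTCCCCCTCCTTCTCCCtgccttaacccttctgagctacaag

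The peaks between of highest enrichment were of several kinds. The peak at chr2:74732925 lay in an exon of Hoxd3, a homeobox gene of the Hoxd cluster, 12 bp downstream of an annotated start. Its centre was covered by 213 and 222 ChIP fragments and 8 input fragments. CpG observed over expected was 1.1 there, and a Cast match lay 250 bp from the centre. At chr6:47740172 the input was itself high, with 76 fragments beside 1900 and 1782 in ChIP. At chr5:32420390, on the processed pseudogene Gm5864, the counts were 145, 179 and 8, and reads of such copies can be placed at more than 1 site. In an intron of Slpi, which encodes a secreted protease inhibitor, they were 125, 154 and 7. The last, in a coding exon of Srfbp1, lay in a long broad peak of 27500 bp and had 203, 224 and 9.

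Shoulder peaks were then counted in the broad peaks over the starts of genes in several lists. Among all autosomal protein-coding genes, 15099 had a start in a broad peak over a PRDM9-independent region, and for 1402 of them, 9.29%, that broad peak also held a shoulder peak. For genes of meiotic recombination and synapsis the count was 3 of 35 (Ccnb1ip1, Hormad2 and Rec8), and for spermatid genes 2 of 23 (Acr and Tnp1), both near that background. It was 2 of 10 for somatic testis genes (Pecam1 and Star), 3 of 13 for developmental transcription factors (Gata6, Irx3 and Nkx2-2) and 2 of 3 for genes of other tissues (Cd3e and Nkx2-1). With so few genes these counts give no order of the lists.

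Rec8 encodes the meiotic kleisin of cohesin. The shoulder of its broad peak, at chr14:55616022, lay 2015 bp upstream of the start and 879 bp from the region, with 20 and 18 ChIP fragments and 3 input fragments, whereas the strongest centre of the broad peak had 381, 503 and 13. It held the following Cast match, printed as above.

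Upstream of Rec8, chr14:55616070-55616150, minus strand: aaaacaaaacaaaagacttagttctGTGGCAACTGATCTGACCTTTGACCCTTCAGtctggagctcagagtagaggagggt

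The corresponding shoulders of the other lists held no motif. At Acr, which encodes the sperm protease acrosin, the counts were 40, 28 and 12. That centre lay in a coding exon, 5724 bp downstream of the Acr start and 7 bp from the region. At Pecam1, an endothelial adhesion gene, they were 40, 44 and 14, at Gata6 71, 68 and 18 and at Nkx2-1, a thyroid and lung homeobox gene, 56, 72 and 15. These 3 centres lay 1840, 3492 and 799 bp from the start of the named gene. The Gata6 shoulder was closer to a start of 1010001N08Rik, at 935 bp.

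The 850 shoulder peaks in long broad peaks differed from the others in several measures that the rule did not use. The 63 broad peaks held from 1 to 68 of them, and PRDM9-independent regions covered a median of 15.4% of their length. A Cast motif was found at 12 of the 850 (1.41%, 0.732 to 2.45) and a Hum motif at 2 (0.235%, 0.0285 to 0.847), against 7.28% and 2.52% of the 3257 in ordinary broad peaks. A share of 1% is what the score limit gives by construction in flanking sequence. A listed DMC1 hotspot lay near 1 of the 850 (0.118%, 0.00298 to 0.654). The median interval given by the authors for the position of the centre was 113.5 bp wide in long and 32 bp in ordinary broad peaks, median CpG observed over expected was 0.175 against 0.235, and median GC content was 42.5% against 50.2%. Coverage was no lower, with medians of 22 and 25 ChIP fragments and 5 input fragments and an enrichment of 5.15. At 94.9% of the 850 the deposited p was under 1e-10. In all, 693 of the 1948 peaks classed as apart over the full set lay in long broad peaks.

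Neighbouring centres of a long broad peak had, by the median, closer counts than separate counts of that size would have. Neighbouring shoulder centres, a median of 2065 bp apart, differed by a median of 2 fragments in either replicate over 787 pairs, where independent counts with the observed medians of 22 and 25 would differ by a median of about 4.5 and 4.8. The counts of 59.1% of pairs in replicate 1 were within 2 fragments of each other, but some pairs differed by much more: the mean of the squared difference over the sum, which is near 1 for independent counts of equal expectation, was 2.73 and 2.74. In broad peaks under 10000 bp, neighbouring shoulders differed by a median of 9 fragments in either replicate over 213 pairs, and neighbouring other PRDM9-dependent centres within 3000 bp of each other by 8 and 9 over 4563 pairs. Broad peaks of 10000 to 20000 bp lay in between, with medians of 5 and 6 over 143 pairs. Of the 50 long broad peaks with at least 3 shoulders, the coefficient of variation of coverage was below that of counting alone in 18 for replicate 1 and in 21 for replicate 2. Its median over the 50 was 29.91% and 28.45%, above the 21.2% and 19.7% of counting. Whether the same sequenced fragments were counted at successive centres was not tested, since the fragments themselves were not analysed here.

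The largest, of 207800 bp at chr17:35263501-35471300, spanned the class I major histocompatibility genes H2-D1 to H2-Q10, which present peptides to T cells and occur in many similar copies, and held 68 shoulder peaks and 12 PRDM9-independent centres. In its last stretch, beyond 160 kb, 16 shoulders had from 86 to 92 fragments in replicate 1 (SD 1.54, against 9.34 for counting) and from 86 to 90 in replicate 2, with 5 to 8 in the input. From 120 to 160 kb, 14 shoulders had from 64 to 70 and from 62 to 74. In the first 45 kb the input was higher, with a median of 27.0 fragments beside 31.0 and 39.0 in ChIP over 15 shoulders. ChIP coverage thus stood at different levels in different stretches of this broad peak.

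The second, of 108800 bp at chr1:136845401-136954200 over Nr5a2, which encodes the nuclear receptor LRH-1, held 46 shoulders. Replicate 1 had from 11 to 18 fragments at the 19 shoulders of the first 40 kb and from 10 to 18 at the other 27. Replicate 2 had medians of 20 and 16 and the input of 1 and 5 in these stretches. The third, of 101700 bp at chr11:32641101-32742800 over Fbxw11, an F-box gene, held 37 shoulders with medians of 14.0 and 12.0 ChIP fragments. Its highest shoulder stood out with 75 and 69 fragments in the replicates.

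The coefficient of variation in replicate 1 ranged widely over the 50 broad peaks, and the following were chosen after their values were seen. Over Als2cr12 and Cflar, an apoptosis regulator, 20 shoulders of a broad peak of 63400 bp varied by 4.25%, and over Kyat1 and Lrrc8a 13 shoulders of a broad peak of 35000 bp by 3.03%, the lowest of the 50. Over Fbxw11 it was 72.7%, against 24.9% for counting, and the highest was 101.5%, against 12.2%. For the Map2k4 peak with 2 NCO events, the 70 and 87 fragments were the highest of the 23 shoulders in its broad peak of 54000 bp, whose medians were 36.0 and 37.0, and it alone held a motif and a DMC1 hotspot there. Its 5 input fragments were also the most there, beside a median of 1, and its enrichment of 14.65 was below the median of 17.5 over those shoulders.

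**Figure D4:**
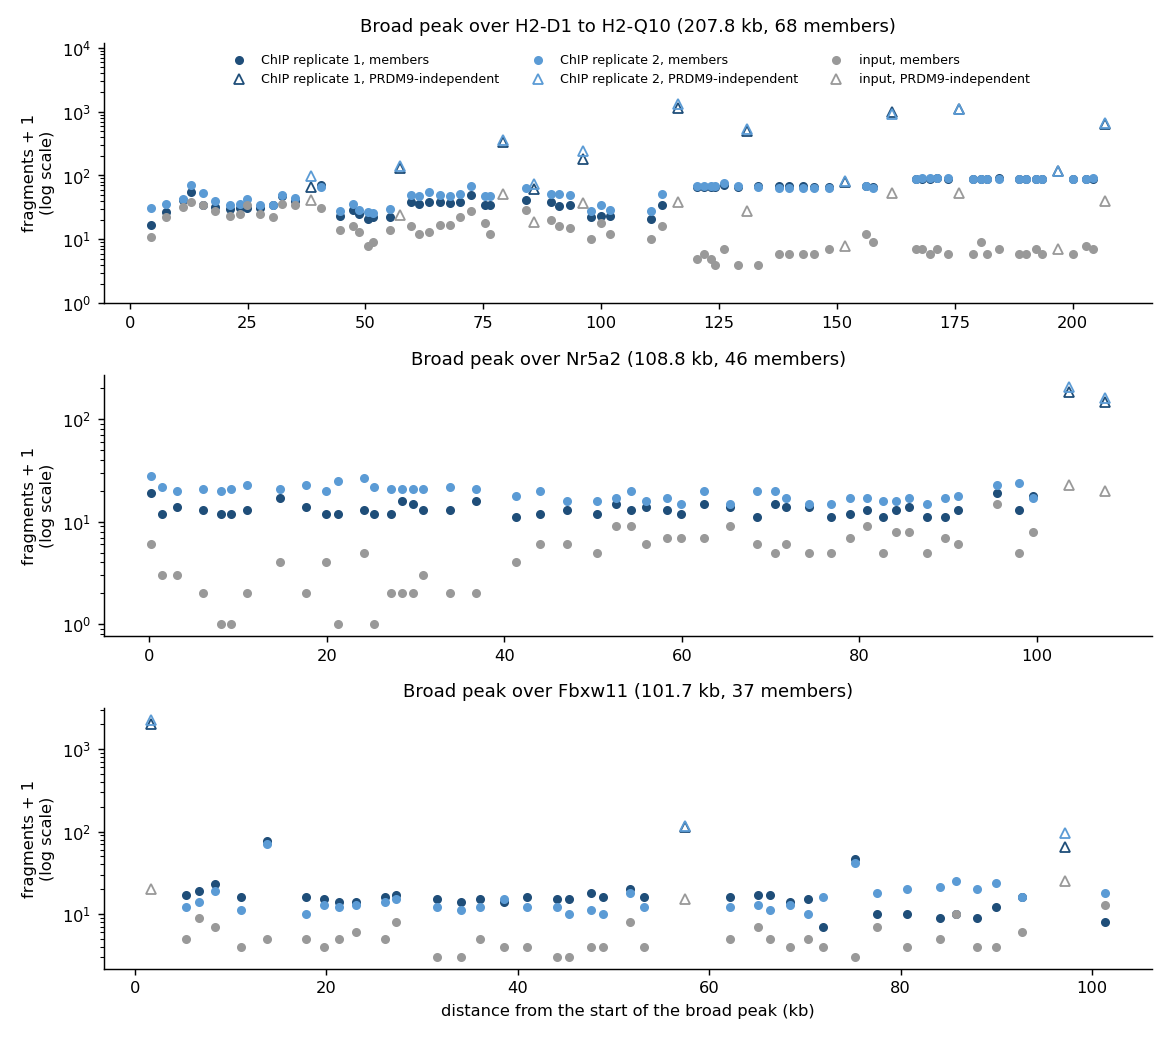
Fragments covering each narrow-peak centre, plus 1 (log scale), along the 3 broad peaks with the most shoulder peaks, in kb from the start of the broad peak. Filled circles are shoulder peaks and open triangles PRDM9-independent centres, in each library. Over H2-D1 to H2-Q10 the shoulders beyond 160 kb stay between 86 and 92 fragments in replicate 1.

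Across chromosomes, shoulder peaks made up from 4.69% to 8.65% of PRDM9-dependent peaks, on chromosomes 12 and 13, and from 4.54% to 6.10% once long broad peaks were left out.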

How the data were processed

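H3K4me3 ChIP-seq was performed on whole testis with antibody Abcam ab8580 (2 ChIP libraries, 1 input). The labels and the study's methods differ on whether replicates came from 1 animal or 2 littermates. Reads were mapped to mm10 with BWA and handled with SAMtools and bedtools (submitters' processing notes); the methods add Stampy and removal of improper pairs and duplicates. Fragment counts over each centre were deposited unnormalized, per the file headers. The authors' enrichment, deposited as a ratio, is a maximum likelihood estimate from both replicates together, normalised to local background coverage and 0 where there is none (fold over background minus 1), and the deposited p-value is from their likelihood ratio test, with narrow peaks at p under 1e-06 and centres at least 1 kb apart. Broad peaks merge bins of 100 bp at p under 1e-05, called jointly. PRDM9-independent regions were deposited as positions, made from peak regions shared between mice with different Prdm9 alleles.

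From these files, overlaps, distances to GENCODE vM21 starts, CpG content and motif scores were computed on GRCm38, the same assembly as mm10, with Python 3 scripts (numpy and pandas; figures with matplotlib) that were checked on simulated data. DMC1 and NCO positions and the motif matrices came from the study's tables, positions only. Flanking windows lay 3000 bp from each centre. Shares carry exact 95% binomial intervals, and peaks were not treated as replicates, so no test was run. Named peaks were the 5 of highest enrichment per position class with at least 5 input fragments and both replicates above input, the 5 with most NCO events, the 3 broad peaks with most shoulders, and the highest shoulder per gene list. The members, classes and lists were chosen with earlier results of these data known, and the splits at 20000 bp, at a CpG ratio of 0.6 and by whether a broad peak held a PRDM9-independent centre, and the comparison of neighbouring counts, after seeing the values. In single libraries, 1 was added to ChIP and input counts before their ratio. The result of 1 gene list is not reported here.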

Additional observations from a re-analysis of the deposited data

How the results depend on the processing

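Of 99 alternative values computed, 66 stayed within 1.5 times of a count or within the 95% binomial interval of a share or median. The values without a replicate in this tally were ratios of ChIP to input counts. They were set against the authors' enrichment, an unlike measure, so their place in the tally says little. The number of shoulder peaks, 4107, was 3968 when the whole interval of the centre had to lie outside the regions, 4107 with an overlap of at least 100 bp and 3577 at p under 1e-10. Class counts depended on the limits: near edge peaks numbered 456 with starts within 5000 bp and 167 with protein-coding starts only, and apart peaks 1070 from 2000 bp, 1118 with starts within 5000 bp and 1255 in broad peaks under 20000 bp. In those broad peaks the apart class had a median enrichment of 3.36, a Cast share of 7.89%, a Hum share of 2.39%, a DMC1 share of 2.71%, a CpG ratio of 0.225 and a median ratio to the strongest PRDM9-independent centre of 0.218 (0.205 between), chosen after seeing the data. Over all shoulder peaks, median enrichment was 4.07 near edge, 3.42 between and 3.87 apart. With at least 5 input fragments it fell to 3.16, 2.79 and 2.76. Over all shoulder peaks, those of long broad peaks included, the Cast share at the 1% limit was 4.04% near edge, 6.94% between and 5.49% apart. The Hum share there was 2.57%, 2.385% and 1.64%. In this set, at a limit passed by 0.1% of flanking windows, the Cast share was 0.368%, 1.75% and 1.18%, and the Hum share 0.735%, 0.477% and 0.154%. At a limit of 5% these were 11.03%, 13.3% and 11.9%, and 9.93%, 10.3% and 6.62%. In ordinary broad peaks the Cast share near edge and apart was 0.370% and 1.75% at the 0.1% limit. It was 11.1% and 15.9% at the 5% limit. Within 150 bp the Cast share over all shoulder peaks was 3.31% near edge, 3.76% between and 3.44% apart, so the classes were close. In ordinary broad peaks it was 3.33% near edge and 4.62% apart. With outermost starts only, 0 somatic testis genes carried a shoulder, against 2 with any start, and 513 shoulders lay in broad peaks of at least 50000 bp, against 850. Each replicate was left out in turn over all shoulder peaks. Median ChIP over input then ranged from 3.5 to 4.0 near edge, from 3.0 to 3.57 between and from 3.32 to 3.93 apart. The ratio to the strongest PRDM9-independent centre ranged from 0.328 to 0.331, from 0.183 to 0.19 and from 0.174 to 0.175. By the authors' enrichment this ratio was 0.3345 near edge, 0.1831 between and 0.1861 apart in the same set. No paired analysis was possible because the single input has no replicate to pair and no result comes from a test between groups. Input depth limits enrichment, as the median shoulder rests on 6 input fragments.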

Other observations

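On the X chromosome, which the set of shoulder peaks leaves out, 103 of 1620 PRDM9-dependent narrow peaks (6.36%) met the remaining conditions of the rule. Their median coverage was 16 and 18 ChIP fragments and 2 input fragments, and their median enrichment was 7.40.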
